A study of Mus musculus with 56 samples.

Results

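The cytosolic ribosomal protein genes are the 81 protein-coding genes of the table whose symbol names a protein of the large (Rpl) or small (Rps) subunit of the cytosolic ribosome, or is Rplp0, Rplp1, Rplp2 or Rpsa. They were chosen by symbol and annotation alone, out of 25415 genes listed. By symbol, 49 of the 81 were assigned to the large subunit and 32 to the small subunit. Whether each product is part of the mature ribosome was not examined. All 81 were among the 25219 genes tested. Rpl3l and Rpl10l, which the rule also takes, were not analysed here, and 6 further symbols of this form (Rpl32l, Rpl6l, Rps12l1, Rps3a2, Rps3a3 and Rps4l) are annotated as pseudogenes and were left out.

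The RNA came from the livers of 56 female mice (C57BL/6J, 9 weeks old) under 12 h of light and 12 h of darkness. For 7 days some mice were offered food only during the light phase (daytime-restricted feeding, DRF) and the others only during the dark phase (nighttime-restricted feeding, NRF, the reference regimen). Sampling ran over zeitgeber time (ZT, in h from the onset of light) 0, 4, 8, 12, 16, 20 and 24. Each regimen had 4 animals at each time, giving 14 groups and 28 libraries per regimen. The labels give no genotype beyond the strain. Each library is 1 liver, so fewer cells of a type and less RNA per cell cannot be told apart.

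The ribosome is built from ribosomal RNA and about one copy of each of these proteins, and the liver spends much of its energy on making it. Ribosomal protein mRNAs typically begin with a C followed by a run of pyrimidines, the terminal oligopyrimidine (TOP) motif, through which the nutrient-sensing kinase mTORC1 and the RNA-binding protein LARP1 set how strongly they are translated. In liver, the translation of these mRNAs is known to follow feeding, while their abundance is usually regarded as steady. The paralogs Rpl7l1, Rpl22l1, Rpl39l and Rps27l are named after Rpl7, Rpl22, Rpl39 and Rps27.

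The bases around the annotated transcription start were searched for such a run. RefSeq promoters (GRCm38.p6) matched 61 of the 81 members. A C followed by at least 4 further C or T stood exactly at the start in 13 of the 61 (21.3%), against 3.01% of 27025 genes, and began within 5 bases of it in 47.5% against 21.2%. In the 300 bases around the start, searched on both strands, CTTCCG was found in 68.9% of the members and 18.8% of all promoters, CTTTCC in 52.5% and 29.3%, GGGCGG in 62.3% and 38.2%, AAGATGGC in 9.84% and 3.19%, and TATAAA in 11.5% and 15.7%. CTTTCC can itself lie inside a pyrimidine run at the start. Of the members described below 8 are shown, each with 10 bases before the start and 20 from it, on the strand of the gene, with the run in capitals where it stands exactly at the start.
Rpl38 (chr11:114668570-114668599, plus strand): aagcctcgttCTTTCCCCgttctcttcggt
Rps27 (chr3:90213629-90213658, minus strand): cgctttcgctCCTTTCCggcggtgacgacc
Rps21 (chr2:180257369-180257398, plus strand): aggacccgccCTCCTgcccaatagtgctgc
Rpl24 (chr16:55966265-55966294, plus strand): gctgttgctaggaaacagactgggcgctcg
Rps27l (chr9:66946076-66946105, plus strand): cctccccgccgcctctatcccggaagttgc
Rpsa (chr9:120127756-120127785, plus strand): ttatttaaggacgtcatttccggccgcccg
Rps4x (chrX:102189372-102189401, minus strand): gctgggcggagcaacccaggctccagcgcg
Rpl7l1 (chr17:46782637-46782666, minus strand): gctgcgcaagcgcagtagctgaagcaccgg
The windows without capitals say only that no such run stands at the annotated base.

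Levels are given as scaled counts, a count rebuilt from each deposited value and set to a common scale between libraries. A library held between 302.6 and 678.7 M rebuilt counts before that scaling (M is 1000000), and between 831216 and 1034200 scaled counts. Replicates of a group correlated at 0.965 to 0.990 across genes. Summed hepatocyte markers (6 of 7 in the table) lay between 92312 and 148965 scaled counts per library. Those of Kupffer cells lay between 332 and 668, and those of T and NK cells between 0.285 and 1.85. The hepatocyte sum averaged 106965 at ZT0 to ZT8 and 119803 at ZT12 to ZT24, and its part in the results was not tested. In 3 libraries at least 11 members lay over 1 log2 unit from the median of their group, against at most 2 in each of the other 53: NRF ZT12 replicate 2 (12 members), NRF ZT12 replicate 3 (16) and NRF ZT16 replicate 3 (11). Counts of members rhythmic under NRF, differing in rhythm between the regimens and differing at ZT16 are given with and without them. Other values, among them shares, group means and differences of the mean, include them unless stated. Since the 3 libraries were picked for their distance from their groups, the values without them are a description.

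The members summed to 5169 scaled counts on average, of which Rpl41, the smallest and most basic protein of the ribosome, made up 24.2%. The rebuilt counts of Rpl41 were too high to judge whether they were whole numbers. Per kilobase of exon, Rpl41 stood at 1072, Rpl36 at 353 and Rplp1, a protein of the ribosomal stalk, at 197, against a median of 14.7 over the 81 members. The stalk base Rplp0 stood at 99.4 per kilobase and Rplp2 at 10.6. At the lower end were Rpl22l1 at 1.33, Rpl21 at 0.503 and Rpl39l at 0.0232. Rpl39l, known from testis, was listed at 0 in the median library of each regimen and reached at most 0.0782 scaled counts under DRF and 0.0853 under NRF. Paralogs stood below the genes they are named after for Rpl7l1 (5.25 per kilobase against 58.2 for Rpl7) and Rpl22l1 (7.55 for Rpl22), but Rps27l stood at 57.0 and Rps27 at 11.7. The order of the levels is uncertain: 74 of the 81 members share stretches of 100 bases with other loci, a median of 31.3% of a member's principal transcript, and how reads matching several loci were counted is not given in the sources used here. The order also depends on the length used, which joins all annotated exons of a gene. It was 1043 bases for Rps27 and 816 for Rps27l, with principal transcripts of 345 and 499, but 499 in both for Rplp1.

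The members together took a larger share of all counts at ZT0 to ZT8 than at ZT12 to ZT24 in both regimens. Under DRF the share was 0.640% ± 0.0726 (SD, n = 12 libraries; lowest 0.519, median 0.637, highest 0.801) at ZT0 to ZT8 and 0.493% ± 0.0377 (n = 16; 0.441, 0.484 and 0.567) at ZT12 to ZT24. Under NRF it was 0.611% ± 0.0575 (n = 12; 0.517, 0.607 and 0.716) and 0.512% ± 0.0728 (n = 16; 0.383, 0.523 and 0.714). Rpl41 is in this share, and the share without it is not given. Its values ran from 1172 to 3156 scaled counts at ZT0 to ZT8 and from 737 to 1400 at ZT12 to ZT24 under DRF. Under NRF they ran from 1068 to 1871 and from 423 to 2406. The highest DRF share and the highest Rpl41 value fell in the same library, ZT0 replicate 3. The NRF extremes at ZT12 to ZT24, 0.383 and 0.714, came from ZT12 replicates 3 and 2, which stood apart. The ranges of both parts of the day overlapped in each regimen, and the split was chosen after the values were seen, so it was not tested. ZT0 and ZT24 are the same time of day, yet the share was 0.625% ± 0.122 (SD, n = 4) at ZT0 and 0.486% ± 0.0556 at ZT24 under DRF, and 0.615% ± 0.0708 and 0.518% ± 0.0165 under NRF. These gaps were close in size to those between the parts of the day, and the animals of ZT0 and ZT24 overlapped under DRF (0.519 to 0.801 against 0.441 to 0.567) but not under NRF (0.552 to 0.716 against 0.502 to 0.537). Other genes with short transcripts moved with it. Among 27 protein-coding non-members with a mean of at least 5 scaled counts and a principal transcript of up to 500 bases, the mean of the library medians, as a log2 deviation from each gene's own mean, was 0.19 at ZT0 to ZT8 and -0.05 at ZT12 to ZT24 under DRF, and 0.10 and -0.13 under NRF. The 11 members of that length gave 0.23 and -0.12 under DRF, and 0.18 and -0.19 under NRF. Among 7111 non-members over 1500 bases the values were -0.01 and 0.03 under DRF, and -0.04 and 0.01 under NRF. The part of transcript length in the members' share was not tested, and the counts below are also given after a correction for it.

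**Figure D1:**
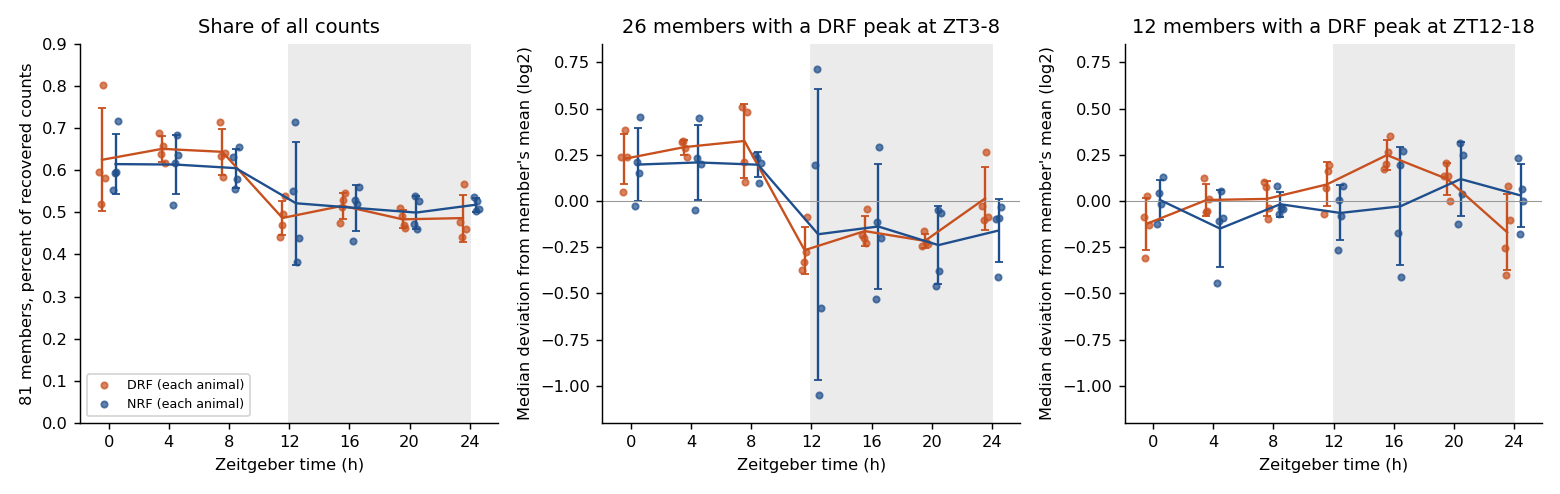
Zeitgeber time (h, dark phase shaded) against the percent of recovered counts in the 81 members (left) and the median log2 deviation from each member's own mean over the 26 members with a DRF peak at ZT3 to ZT8 (middle) and the 12 with a DRF peak at ZT12 to ZT18 (right). Points are animals, lines join the means of 4 animals and bars are SD; the share stands higher from ZT0 to ZT8 in both regimens, NRF ZT12 is the widest group in the middle panel, from -1.05 to 0.72, and the members were classed by the DRF values shown.

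Rhythms of 24 h were tested within each regimen to ask which members oscillated under daytime and under nighttime feeding. Under DRF, 38 of the 81 members (46.9%) were rhythmic, against 37.8% of all genes tested (limma F test of cosine and sine, Benjamini-Hochberg adjusted p under 0.05). They fell into 2 classes. In 26 members, 16 of the large and 10 of the small subunit, the fitted peak lay between ZT3.44 and ZT7.71 (median ZT4.58), inside the feeding phase, with a median peak-to-trough fold of 1.47 (range 1.23 to 2.19). In 12 members, 5 large and 7 small, it lay between ZT12.3 and ZT17.5 (median ZT14.8), with a median fold of 1.23 (1.19 to 1.38). After correction for transcript length the count was again 38, with 19 in each class, and the background was 37.4%.

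The early class was led by Rpl23a, Rpl38 and Rps13. Rpl38, a protein of the large subunit known for its part in translating Hox mRNAs in the embryo, averaged 90.6 ± 10.2 scaled counts (SD, n = 4) at ZT0 under DRF and stayed at 95.5 ± 11.2 and 96.9 ± 21.2 at ZT4 and ZT8. At ZT12 it was at 48.5 ± 7.47, followed by 54.6 ± 4.76 and 49.9 ± 2.44 in the next 2 groups, and it stood between at ZT24 (74.6 ± 15). Every animal at ZT0 to ZT8 (77.4 to 120) was above every animal at ZT12 to ZT20 (39.8 to 61.6). The log2 amplitude was 0.55 ± 0.07 (SE) and the peak ZT4.30 ± 0.468 (limma, adjusted p = 5.17e-06).

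Rpl23a, which lies at the exit of the nascent peptide, had the largest log2 amplitude, 0.57 ± 0.08 with a peak at ZT4.86 (limma, adjusted p = 5.73e-06). Exons of genes on the opposite strand cover 59.7% of its exons, and whether the counting used strand is not given in the sources used here. Rps13 had a log2 amplitude of 0.50 ± 0.08, with 9.18 ± 2.27 scaled counts (SD, n = 4) at ZT8 and 4.02 ± 0.187 at ZT12. Rpl24, which reaches across to the small subunit, had the lowest p of the class (1.70e-06 adjusted, limma) with an amplitude of 0.37 ± 0.05, from 18.6 ± 2.79 scaled counts (SD, n = 4) at ZT8 to 11.4 ± 1.04 at ZT12. In Rpl24 the 12 animals at ZT0 to ZT8 and the 12 at ZT12 to ZT20 did not overlap, the lowest of the former being 15.6 and the highest of the latter 12.9. Exons of another gene on the same strand cover 47.0% of the exons of Rpl24, so its values are uncertain. Rpl41 went from 1803 ± 911 (SD, n = 4; 1170 to 3156) at ZT0 to 859 ± 100 at ZT12. Its 4 animals at ZT0 spread more than those of any other time under DRF.

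Members of the late class included Rps4x, Rps3, Rps7, Rps16, Rpsa and Rps27l of the small subunit, and Rplp1, Rplp2, Rpl13, Rpl39 and Rpl22l1 of the large one. Rps4x, the X-linked copy of the protein S4, had 73.6, 79.4, 82.9 and 83.9 scaled counts in the DRF animals at ZT16, against 60.6, 54.1, 63.7 and 59.7 at ZT0 and 52.1, 51.6, 66.3 and 58.9 at ZT24. The ZT16 animals were above all of those. Its log2 amplitude was 0.19 ± 0.03 with a peak at ZT14.8 ± 0.707 (limma, adjusted p = 0.000308).

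**Figure D2:**
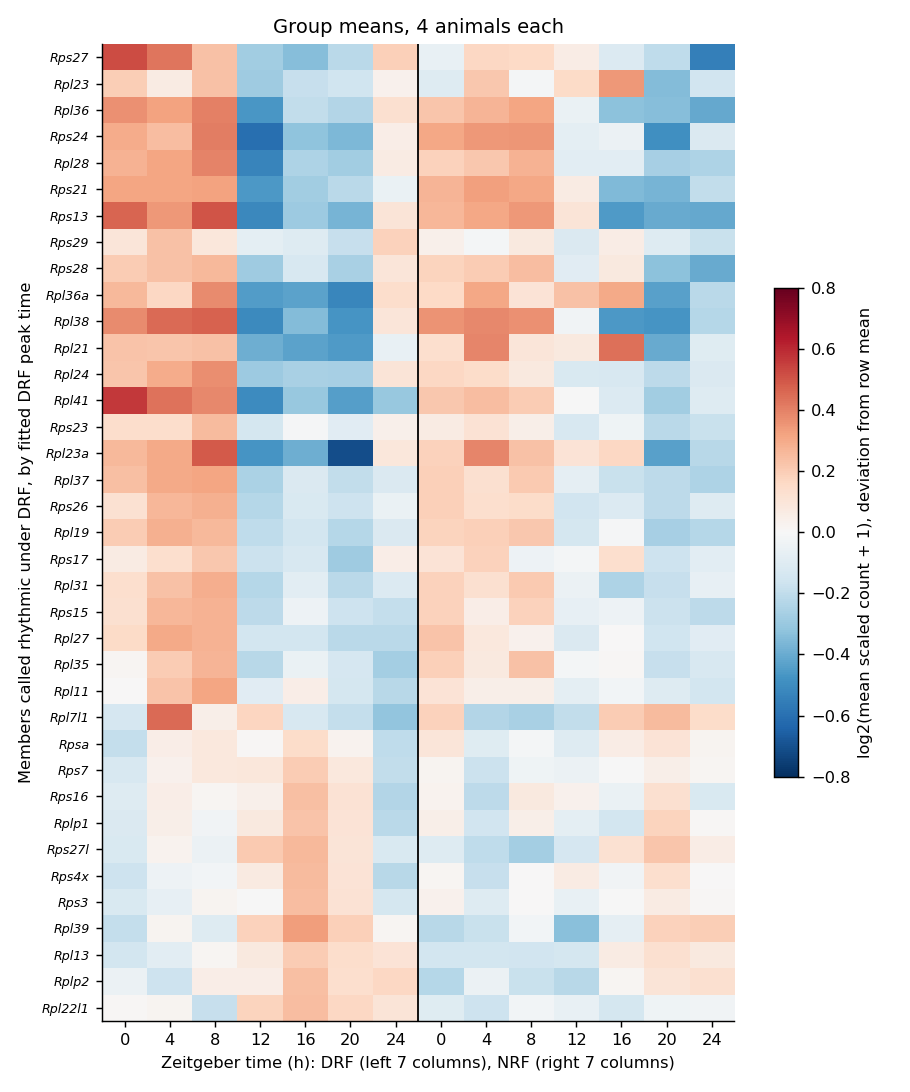
37 of the 38 members called rhythmic under DRF (rows, ordered by fitted DRF peak) at 7 zeitgeber times (h) under DRF (left 7 columns) and NRF (right 7 columns); color is the log2 of the mean scaled count + 1 of 4 animals minus the row mean. Most of the 26 upper rows are high at ZT0 to ZT8 under DRF, and most also are under NRF. The 11 lower rows are highest around ZT16 under DRF. Rpl7l1, one of the upper rows, is high at ZT4 but not at ZT0 under DRF, and at ZT16 to ZT0 under NRF.

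Transcript length went along with the classes. The principal transcript had a median of 645.5 bases in the early class, 867 in the late class and 886 in the 43 members not called. All 11 members of up to 500 bases were called under DRF, 9 of them in the early class, whereas 17 of the 70 longer members were in the early class. After the length correction 19 of the 26 early members were called, with a median log2 amplitude of 0.23 in place of 0.28 over the 26, and 12 of the 12 late members, with 0.23 in place of 0.15. A pyrimidine run stood at the start in 5 of 21 early, 1 of 10 late and 7 of 30 uncalled members with a promoter.

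Under NRF 6 members (7.41%) were rhythmic, against 38.6% of all genes tested. Rpl38, Rps21, Rps13 and Rpl31 peaked between ZT4.94 and ZT5.83, and Rpl7l1 and Rps27l at ZT19.9 and ZT18.9. Rpl38 averaged 89.6 ± 20.3 scaled counts (SD, n = 4) at ZT0, 91.3 ± 12.6 at ZT4 and 89.9 ± 9.01 at ZT8, and had fallen to 50.3 ± 14.6 by ZT16 and 49.8 ± 9.15 by ZT20. It stayed low at ZT24, with animals from 44.9 to 67.7, although those of ZT0, the same time of day, ran from 67.02 to 116.2. Part of the fall of Rpl38 therefore also lay between ZT0 and ZT24. At ZT12 its animals gave 84.2, 134, 21.3 and 33.7, a wider spread than in any other group. The values 134 and 21.3 came from libraries that stood apart. The NRF amplitude of Rpl38 was 0.52 ± 0.14 with a peak at ZT4.94 ± 0.935 (limma, adjusted p = 0.0144), close to the DRF values, and the test of a difference on clock time gave an adjusted p of 0.881 (limma). The low NRF count rests in part on the libraries that stood apart. Without NRF ZT16 replicate 3 it was 15, without NRF ZT12 replicate 3 it was 10, and without all 3 libraries it was 24 (22 with an early and 2 with a late peak), against 37.9% of all genes. After the length correction without the 3 libraries it was 30, 15 in each class, against 39%. Passing the threshold under DRF and not under NRF does not show a difference between the regimens.

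Peak times were compared for the 38 members rhythmic under DRF, to ask whether they followed lights or food. In 23 of the 26 early members the NRF peak lay within 4 h of the DRF peak (median distance 1.03 h), although the food came 12 h apart. Under NRF the median log2 deviation of the early class averaged 0.20 at ZT0 but -0.16 at ZT24, the same time of day. At ZT12, ZT16 and ZT20 it averaged -0.18, -0.14 and -0.24. Under DRF it averaged 0.23 at ZT0 and 0.01 at ZT24. The part of this gap, and of transcript length, in the peak times was not tested. Of the 6 members rhythmic in both regimens, 4 peaked within 4 h (0.327 to 1.76 h) and 1, Rpl7l1, at least 8 h apart. Among all 5589 genes rhythmic in both, 22.7% lay within 4 h and 52.4% at least 8 h apart. Without the 3 libraries 20 of the 26 early members were called under NRF, and 20 of the 21 members called in both regimens lay within 4 h. In the 12 late members the median distance was 4.45 h, with 4 within 4 h and 3 at least 8 h apart. The NRF amplitudes of the late class were low (median 0.07 on the log2 scale), so that most of these NRF peak times are poorly set.

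**Figure D3:**
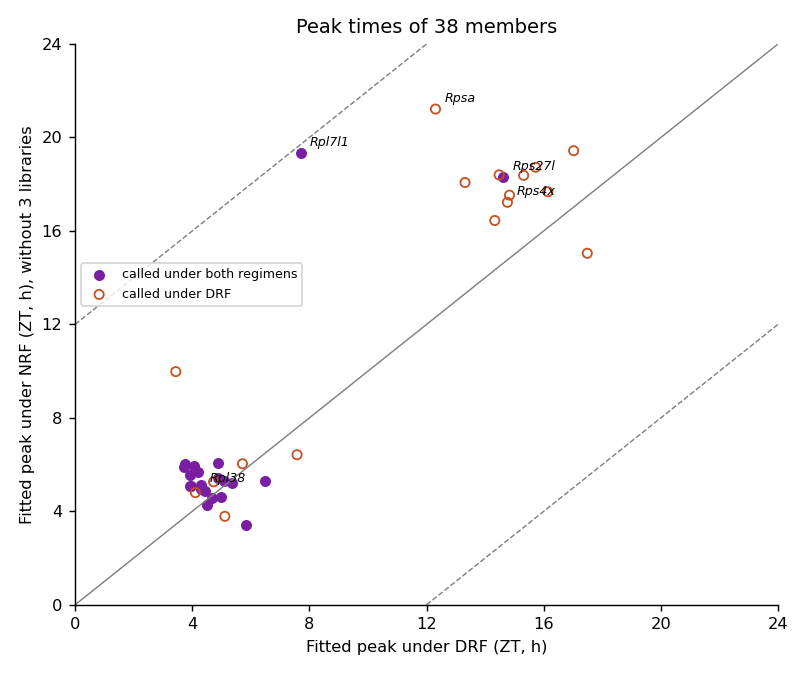
Fitted peak times (ZT, h) under DRF (horizontal) and under NRF without the 3 libraries that stood apart (vertical) of the 38 members rhythmic under DRF; filled points were called in both regimens, open points under DRF, the solid line is equal time and the dashed lines a shift of 12 h. Most early members lie near the line of equal time, the late members mostly above it, and Rpl7l1 lies near a 12-h shift.

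The rhythm itself differed between the regimens on clock time in 6 members (7.41%), against 38.8% of all genes: Rpl7l1, Rpsa, Rps27l, Rpl22, Rps27 and Rps7. When times were counted from the start of feeding, the rhythm differed in 30 members (37.0%), against 34.3% of all genes, and 27 of the 30 did not differ on clock time. The share of all genes that differed on feeding time alone is not given. Of the early class, 20 of 26 differed on feeding time and 2 on clock time. That class was picked by its DRF rhythm in these same values, so its counts are a description. Not passing the test on clock time does not show that the rhythm was the same in both regimens. Without the 3 libraries the counts were 4 on clock time (37.4% of all genes) and 39 on feeding time (34.7%), and after the length correction 7 (39.9%) and 37 (33.2%). The clock-time count fell to 2 without NRF ZT12 replicate 1, and to 3 without each of DRF ZT0 replicate 4, NRF ZT12 replicate 2, NRF ZT24 replicate 1 and NRF ZT24 replicate 4.

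Rpl7l1 (ENSMUSG00000063888), a member by its symbol and a paralog of the large-subunit protein Rpl7, had the lowest p on clock time. Under DRF its animals had 25.7, 24.7, 23.5 and 26.6 scaled counts at ZT4, against 15.7, 14.6, 16.5 and 16.1 at ZT20. Under NRF they had 15.7, 14.3, 17.3 and 13.8 at ZT4, and 20.6, 24, 20.5 and 21.9 at ZT20. At both times the regimens did not overlap, and the order was opposite.

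The fitted peak of Rpl7l1 was ZT7.71 ± 0.742 (SE) under DRF and ZT19.9 ± 0.471 under NRF, 11.8 h ± 0.878 apart, with log2 amplitudes of 0.26 ± 0.05 and 0.31 ± 0.04. The rhythms differed on clock time (limma, adjusted p = 5.79e-09) and gave an adjusted p of 0.861 on feeding time. The difference on clock time passed under 70 of 70 alternatives, with a highest adjusted p of 2.10e-07. DRF minus NRF was 0.69 ± 0.09 (SE, log2) at ZT4 (limma, adjusted p = 1.17e-07) and -0.46 ± 0.09 at ZT24 (0.000167). It passed at each of the 7 times, with higher DRF values at ZT4, ZT8 and ZT12 and lower ones at ZT0, ZT16, ZT20 and ZT24. Rpl7 itself averaged 158.5 ± 18.3 scaled counts (SD over 28 libraries) in the DRF livers and 154.4 ± 22.7 in the NRF livers. It had log2 amplitudes of 0.09 ± 0.04 and 0.07 ± 0.06 and was called in neither regimen.

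**Figure D4:**
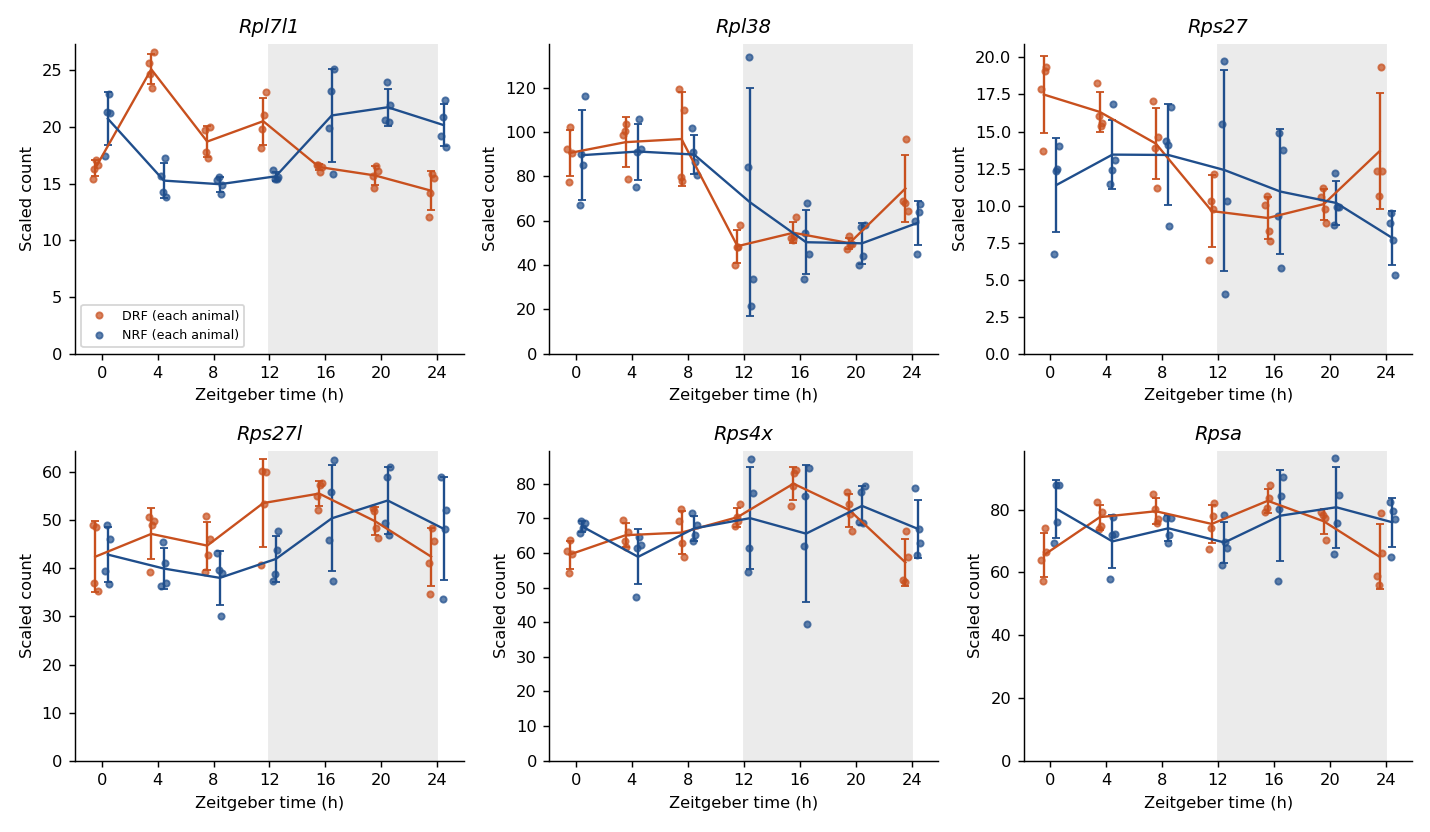
Scaled counts by zeitgeber time (h, dark phase shaded) of Rpl7l1, Rpl38, Rps27, Rps27l, Rps4x and Rpsa; points are animals, lines join means of 4 and bars are SD. Rpl7l1 is highest at ZT4 under DRF and at ZT20 under NRF, while Rpl38 is high at ZT0 to ZT8 in both regimens.

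The pair Rps27 and Rps27l moved at opposite times under DRF. Rps27, a small-subunit protein with a zinc finger, had 17.5 ± 2.61 scaled counts (SD, n = 4) at ZT0 and 9.16 ± 1.45 at ZT16 under DRF, with a peak at ZT3.44. Under NRF it had 11.4 ± 3.19 and 10.9 ± 4.22 at the same times, and the 4 animals at ZT12 spread from 4.04 to 19.8. Its rhythm differed on clock time (limma, adjusted p = 0.0392) and on feeding time (0.00846), and the former passed under 53 of 70 alternatives.

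Rps27l, also known as a target of p53, had 42.4 ± 7.32 at ZT0 and 55.5 ± 2.63 at ZT16 under DRF (peak ZT14.6). Under NRF it had 38 ± 5.60 at ZT8 and 54.1 ± 6.87 at ZT20 (peak ZT18.9). Its DRF and NRF peaks were 4.28 h ± 1.37 apart (limma, adjusted p = 0.0350 on clock time, passed under 52 of 70 alternatives, and 0.00173 on feeding time).

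The remaining 3 members differed on clock time with lower amplitudes. Rpsa, a small-subunit protein also described as a laminin receptor, peaked at ZT12.3 under DRF and ZT20.3 under NRF, with log2 amplitudes of 0.12 ± 0.04 and 0.09 ± 0.05 (limma, adjusted p = 0.0284). Its group means ranged from 65.0 ± 10.3 (SD, n = 4) at ZT24 to 82.8 ± 3.78 at ZT16 under DRF, and from 69.5 ± 6.67 at ZT12 to 80.7 ± 13.0 at ZT20 under NRF. Rpl22, which binds RNA outside the ribosome too, gave amplitudes of 0.05 ± 0.04 and 0.15 ± 0.05 and was called in neither regimen (adjusted p = 0.563 under DRF and 0.0688 under NRF, 0.0354 for the difference, limma). Without the 3 libraries that stood apart it was called under NRF (amplitude 0.17, adjusted p = 0.0262, limma, and 0.0113 for the difference). Rps7, outside the rule for named genes and given because it completes the 6, gave an adjusted p of 0.0496 (limma), which passed under 28 of 70 alternatives.

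The level over the whole day did not pass the test in any of the 81 members, against 6.74% of all genes. For 12 members the unadjusted p of limma was under 0.05, and the lowest adjusted p was 0.0757 (Rpl22l1, 0.17 ± 0.06 on the log2 scale). DRF minus NRF ranged from -0.13 to 0.22 with a median of 0.05 (log2), and 68 members had a higher DRF and 13 a higher NRF mean, while the median of all genes was 0.00. The count was 1 without each of DRF ZT24 replicate 2, NRF ZT12 replicate 4 and NRF ZT16 replicate 2. The 3 largest differences toward DRF were 0.22 ± 0.35 (SE) for Rpl29, 0.20 ± 0.13 for Rpl12 and 0.19 ± 0.08 for Rpl39 (limma, adjusted p = 0.153 for Rpl39). For Rpl29 the medians were 14.6 scaled counts under DRF and 14.5 under NRF, and the lowest libraries held 0.0922 and 0.0836. The 3 largest differences toward NRF were -0.13 ± 0.11 for Rpl21, -0.09 ± 0.07 for Rps12 and -0.08 ± 0.13 for Rps10. These fits include NRF ZT16 replicate 3, which stood apart. It held 7.08 scaled counts of Rpl21, against 0.781 to 1.28 in the rest of its group. For Rps12 it held 19.97 against 6.24 to 9.70, and for Rpl12 0.658 against 11.9 to 18. Medians under DRF and NRF were 1.42 and 1.66 for Rpl21, 9.23 and 9.15 for Rps12, and 18.4 and 18.8 for Rpl12. Differences without that library are not given.

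At single times few members differed between the regimens. By limma at an adjusted p under 0.05, ZT0 gave 1 member (16% of all genes), ZT4 gave 2 (20.4%), ZT8 gave 1 (12.9%) and ZT12 gave 2 (15.2%). The later times gave 9 at ZT16 (15.2%), 2 at ZT20 (13.8%) and 1 at ZT24 (14.1%). Rpl7l1 was among them every time, and the others before ZT16 were Rpl3 at ZT4 (0.32 ± 0.12, adjusted p = 0.0469) and Rpl39 at ZT12 (0.60 ± 0.19, 0.0260). NRF ZT12 replicate 3, which stood apart, held 15.7 scaled counts of Rpl39, against 27.1 to 39.9 in the rest of its group. The ZT4 count was 1 without DRF ZT0 replicate 3 or 4, DRF ZT4 replicate 1, 3 or 4, DRF ZT8 replicate 1, DRF ZT12 replicate 2 or 4, DRF ZT20 replicate 2, DRF ZT24 replicate 1, NRF ZT4 replicate 1 or NRF ZT8 replicate 1. The ZT0 count was 0 without NRF ZT0 replicate 3 and 2 without DRF ZT0 replicate 3, NRF ZT0 replicate 1 or NRF ZT16 replicate 1, and ZT24 gave 2 without NRF ZT12 replicate 2 or 3 and 3 without NRF ZT16 replicate 3. The ZT8 count was 0 without DRF ZT8 replicate 1, DRF ZT8 replicate 4 or NRF ZT8 replicate 3, and ZT12 gave 5 without NRF ZT12 replicate 3 and 1 without DRF ZT12 replicate 4 or NRF ZT12 replicate 1. Of the 9 at ZT16, 8 were higher under DRF (8.75% of all genes), among them Rpl12, Rpl3, Rpl15, Rplp1, Rpl22l1, Rps14 and Rps2, and Rpl7l1 was lower (6.43%). Rpl3, a core protein of the peptidyl transferase center, averaged 323 ± 22.3 scaled counts (SD, n = 4) in the DRF livers and 252.5 ± 41.8 in the NRF livers there (log2 difference 0.37 ± 0.12 SE, limma adjusted p = 0.0253).

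The ZT16 count was decided by single libraries: 1 without NRF ZT16 replicate 3 or without DRF ZT16 replicate 4, 3 without NRF ZT16 replicate 1 or DRF ZT16 replicate 3, 16 without NRF ZT16 replicate 2 and 22 without NRF ZT16 replicate 4. In the library NRF ZT16 replicate 3, Rpl12, a protein of the stalk base, had 0.658 scaled counts, against 11.9, 17.2 and 18 in the other animals of its group. Without the 3 libraries that stood apart, Rpl7l1 was the 1 member called at ZT16 (-0.44 on the log2 scale, limma adjusted p = 0.000349), against 11.8% of all genes.

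A component of 12 h beside the 24-h rhythm was called in 7 members under DRF, among them Rpl15, Rpl14, Rplp0, Rps6, Rpl3 and Rpsa, against 6.44% of all genes. The 12-h amplitudes on the log2 scale ran from 0.12 (Rpsa) to 0.14 (Rpl3) in those named. Rps6 is the protein that S6 kinase phosphorylates. The count lay between 2 and 12 when single DRF libraries were left out, and was 12 without DRF ZT0 replicate 3. It was 2 without each of DRF ZT4 replicate 1, DRF ZT12 replicate 1 and DRF ZT24 replicate 4, 3 without DRF ZT4 replicate 4, DRF ZT12 replicate 2 or DRF ZT16 replicate 4, and 4 without DRF ZT0 replicate 2, DRF ZT4 replicate 2 or DRF ZT16 replicate 3. Under NRF it was called in 0 members (0 with an unadjusted p under 0.05 in limma), against 0.761% of all genes.

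ZT24 and ZT0 are the same time of day, and 0 members differed between them in either regimen by limma, against 3.12% of all genes under DRF and 7.88% under NRF. The unadjusted p was under 0.05 for 11 members under DRF and 10 under NRF. Most members were lower at ZT24, 69 of 81 under DRF and 66 of 81 under NRF, with a median log2 difference of -0.18 in each. The share of all genes lower at ZT24 is not given. Over 13684 genes, the library medians of the log2 deviation ran from 0.002 to 0.023 at ZT0 under DRF. At ZT24 they ran from -0.042 to 0.033. Under NRF they ran from -0.027 to 0.028 at ZT0 and from -0.046 to 0.002 at ZT24. The NRF count was 3 without NRF ZT12 replicate 2 or replicate 3, 2 without NRF ZT0 replicate 1 and 1 without NRF ZT16 replicate 3. It was higher still with the values as deposited and without all 3 libraries that stood apart, and those counts are given at the end. A count of 0 therefore does not show that the 2 times agreed. The difference was -0.79 ± 0.29 (SE) for Rpl41 under DRF and -0.64 ± 0.24 for Rps13 under NRF. After the planned correction for exon length the medians were -0.10 and -0.08.

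Pseudogenes bear on single members. In the table, 75 members had pseudogenes that share at least 20% of their stretches of 31 bases with the member's principal transcript. In the 45 members whose pseudogenes summed to a mean of at least 1 scaled count, these made up a median of 6.31% of member and pseudogenes together, but 93.2% for Rpl21, 81.9% for Rpl29 and 51.7% for Rpl30. Rpl29 had between 9.29 and 20.1 scaled counts in 48 libraries and between 0.0836 and 1.43 in the other 8. Those 8 came from DRF ZT4 and ZT12 and NRF ZT0, ZT12 and ZT16, and its pseudogenes summed to at least 38.2 in every library.

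Rpl30 and Rps27a, chosen after their values were seen, ran against their pseudogenes. Exons on the opposite strand cover 20.4% of the exons of Rpl30. The SD of Rpl30 over the 56 libraries was 0.42 on the log2 scale alone and 0.14 when summed with its 9 pseudogenes. Its libraries fell into clusters, so no correlation is given for it. For Rps27a, which is made as a fusion with ubiquitin, the SD was 0.61 alone and 0.37 summed. Across the 56 libraries Rps27a and its 6 pseudogenes gave a Pearson r of -0.709 (permutation within groups, adjusted p = 0.000189 over 45 members compared) and a Spearman rho of -0.537 (adjusted permutation p = 0.00261), and with the 2 most distant libraries left out r was -0.639. At ZT20 Rps27a was lower under DRF by 1.53 ± 0.49 (SE, log2, limma adjusted p = 0.0265), against -0.85 (0.0520) after summing. The count at ZT20 was 1 without DRF ZT20 replicate 1, 3 or 4 or NRF ZT20 replicate 2. Of the other 43 members compared, 26 had a positive r that passed. Summing changed few counts over the 81 members: it left Rpl7l1 as the 1 member called at ZT20 (13.8% of all genes).

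**Figure D5:**
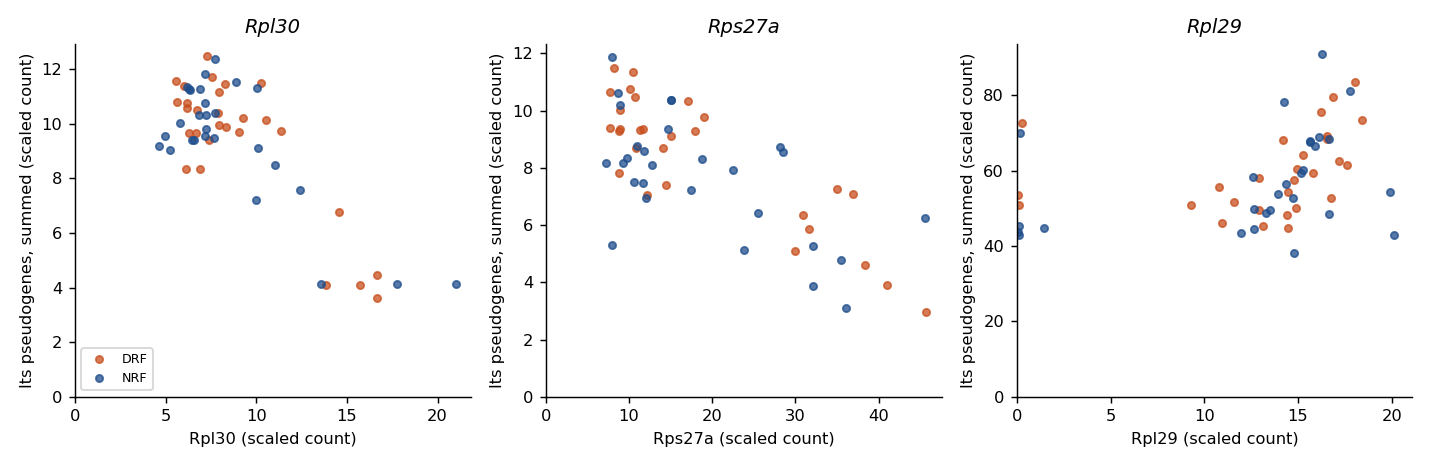
Scaled counts of Rpl30, Rps27a and Rpl29 (horizontal) against the sum of the pseudogenes that share their sequence (vertical) in the 56 libraries, each point an animal. Rpl30 and Rps27a are high where their pseudogenes are low, whereas Rpl29 lies between 0.0836 and 1.43 in 8 libraries at ordinary pseudogene levels.

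The same tests were read for lists of other genes of translation, beside 37.8% of all genes rhythmic under DRF, 38.6% under NRF, 38.8% differing on clock time and 34.3% on feeding time. Among 21 translation factors whose mRNAs also carry a TOP motif, 11 were rhythmic under DRF and 9 under NRF, and 11 differed on clock time and 8 on feeding time. Among 37 other initiation and elongation factors the counts were 26, 22, 27 and 15. At ZT4 19 of the 37 differed between the regimens (20.4% of all genes), each higher under DRF, whereas at ZT16 10 differed (15.2%), 8 of them lower under DRF, and at ZT20 7 differed (13.8%), 5 of them lower. Among 78 mitochondrial ribosomal proteins, the set most like the members by name, they were 61, 26, 40 and 43. At ZT4 34 of the 78 differed, each higher under DRF, at ZT16 7 differed, 4 of them higher, and at ZT20 7 differed, 6 of them lower. Among 7 ubiquitin fusions and other ribosomal components they were 5, 3, 3 and 4.

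Of 23 genes known to control ribosomal protein mRNAs, 15 were rhythmic under DRF and 19 under NRF, 17 differed on clock time and 10 on feeding time. From all these lists the 4 genes with the lowest p on clock time are named, so their distant peaks follow from the choice and are a description. Larp1, which binds TOP mRNAs, peaked at ZT10.0 under DRF and ZT22.7 under NRF (limma, adjusted p = 2.99e-16 on clock time and 0.171 on feeding time). After the correction for transcript length its feeding-time value passed (0.0245). Mtor, the kinase of mTORC1, peaked at ZT21.0 and ZT8.48 (9.81e-15 on clock time), and its rhythm differed on feeding time too (8.21e-05). The initiation factors Eif4b and Eif4a2 peaked at ZT20.1 and ZT20.8 under DRF and at ZT8.29 and ZT9.70 under NRF, with adjusted p of 0.843 and 0.215 on feeding time (limma). Without the 3 libraries that stood apart the feeding-time value of Eif4a2 passed (0.0322).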

How the data were processed

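Gene values of 56 liver libraries were analysed, 28 per regimen. Per the labels, ribosomal RNA was depleted and the libraries were strand-specific and paired, although the molecule field names polyA RNA. CASAVA 1.8 and featureCounts 1.5.0-p3, with mm10 and GRCm38.p6, are listed in the submitters' processing notes. The aligner and the handling of reads that match several loci are not given in the sources used here. The deposited values are named TPM, but each value times its gene's exon length equals a constant of the library times the natural log of 1 plus a scaled whole count. The unit is therefore treated as a score that the authors scaled, logged and divided by length. Rebuilt counts fell within 0.05 of an integer for 99.03% of values up to 10 counts and 94.22% of values from 20000 to 100000 (chance 10%). GENCODE vM21 gave the exon lengths, but for 258, 338 and 370 genes on chromosomes 17, 18 and 19 the length was searched on the values. Scaled counts were used, in which 1 unit stood for 304 to 723 recovered counts. Of 25415 genes 196 were not rebuilt. For 310 genes, among them Rpl41, the counts were too high to judge whether they were whole numbers. Recovered counts need not be numbers of reads, so precision is given by the spread between animals.

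Groups came from the labels, and 0 columns were left unassigned. Replicate numbers name different animals, and libraries of the same number in different groups did not deviate together (mean r 0.00483 over 364 pairs). The design named linear TPM, so its tests were applied to log2(scaled count + 1), with limma 3.58.1 in R 4.3.3 (lmFit, eBayes with trend) and Benjamini-Hochberg adjustment over 25219 genes. Changes of low genes come out too small on that scale. Rhythms used 24-h and 12-h cosine and sine terms, and 1 fit of both regimens tested differences on clock time, on feeding time (NRF moved by 12 h) and of the mean. A fit of 14 group means tested single times. The limma fits and the rank test were tested on simulated data. Correlations with pseudogenes used 100000 permutations within groups (scipy 1.17.1). The length trend (lowess over 13684 genes with a mean of at least 1 scaled count) was subtracted per library. It was planned for exon length. For the length of the principal transcript, chosen after seeing the data, it was taken over 13533 non-members. Other alternatives were the values as deposited, scaling, pseudocount, filter, block, times, rank test and leaving out libraries.

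The members and lists were chosen with earlier results of these data known. Named members were those with the strongest differences on clock time, in mean, in rhythm and from ZT0 to ZT24, the highest and lowest levels, Rplp0, Rplp1, Rplp2, Rpsa and the paralogs with the genes they are named after. Other members are named where they complete a count or are said to be chosen after their values were seen. Some members that were counted and tested are not reported here by name. Transcript and circular RNA tables were not used.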

Additional observations from a re-analysis of the deposited data

Results flagged for a closer look

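The 24-h rhythm differed between DRF and NRF on clock time, by limma's test of the difference itself, in 6 members: Rpl7l1 (adjusted p = 5.79e-09), Rpsa (0.0284), Rps27l (0.0350), Rpl22 (0.0354), Rps27 (0.0392) and Rps7 (0.0496). Of 98 groups of 4 animals looked at for a sample far from the others, 1 stood out: Rpl38 under DRF at ZT24, where replicate 3 had 96.8 scaled counts and the other animals 69.1, 68.1 and 64.2. Chance flags about 1 in 20 such groups.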

How the results depend on the processing

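Of 204 comparisons of a count with an alternative, 153 stayed within 1.5 times, and of 6893 comparisons of a named member 6645 kept their side of the threshold, 182 fell below it, 66 rose past it and 0 reversed. Members rhythmic under NRF, 6 as reported, numbered 12 with the values as deposited, 10 with a mean of at least 10 scaled counts, 10 after correction for exon length and 10 for transcript length, and 12 for transcript length and GC. They numbered 24 without the 3 libraries that stood apart and 30 when the length correction was added. The exact rank test gave 33 under DRF and 8 under NRF. The difference on clock time, 6 as reported, numbered 3 without ZT0, 2 without ZT24, 1 as deposited and 10 with the GC correction. The 12-h component under DRF, 7 as reported, numbered 0 as deposited, 12 with a mean of at least 10, 3 after exon length, and 1 after transcript length, with GC, or without the 3 libraries after it. At ZT16, 9 as reported, the counts were 2 as deposited, 14 with a mean of at least 10, 4 after each length correction, 5 with GC, 1 without the 3 libraries and 1 with both. At ZT0, 1 as reported, they were 0 as deposited, 2 with a mean of at least 10, after each length correction, with GC and without the 3 libraries, and 3 with both. At ZT4, 2 as reported, they were 1 as deposited, after each length correction, with GC and with both. ZT12 gave 1 without the 3 libraries, ZT20 gave 1 after summing with pseudogenes, and ZT24 gave 2 with a mean of at least 10, 5 without the 3 libraries and 7 with both. ZT24 against ZT0, 0 as reported, gave under DRF 1 as deposited, 1 without the 3 libraries and 1 with both, and under NRF 16 as deposited, 1 after each length correction and after summing, 2 with GC, 9 without the 3 libraries and 4 with both. The cause of these moves was not tested.

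Leaving out 1 library at a time gave 35 to 44 members rhythmic under DRF and 6 to 15 under NRF, 2 to 8 differing on clock and 26 to 36 on feeding time, 2 to 12 with a 12-h component under DRF and 0 to 0 under NRF, and 0 to 1 differing in mean. At ZT0 it gave 0 to 2, at ZT4 1 to 3, at ZT8 0 to 1, at ZT12 1 to 5, at ZT16 1 to 22, at ZT20 1 to 2, at ZT24 1 to 3, and from ZT0 to ZT24 0 to 0 under DRF and 0 to 3 under NRF. With the replicate number as a block, 37 members were rhythmic under DRF, 5 differed on clock time and 5 had a 12-h component under DRF. The numbers do not pair the animals, and the block moved no count by over 1.5 times. The corrections for transcript length and GC, the sums with pseudogenes and the fits without 3 libraries were chosen after seeing the data. A difference in Rpl39l, at or near 0 in every library, was not detectable at this depth.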
